A study of Mus musculus with 12 samples.

Results

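The 2 mature arms of the mouse miR-21a hairpin, mmu-miR-21a-5p and mmu-miR-21a-3p (written without the species prefix from here on), were followed through the miRNA libraries of AKR-2B colonies. They were chosen by name, with their values in these libraries already known, from 1281 mature miRNAs in the count table, of which 664 had a read in any library. Both arms had at least 1 read in each of the 6 libraries. AKR-2B is a mouse fibroblast cell line, grown here in soft agar, a gel in which cells form colonies without attaching to a surface. Cells received 25 ng/mL TGFβ or vehicle, and colonies were collected at days 2, 4 and 8, with no other allele or agent named. Each condition and day had 1 miRNA library and 1 mRNA library, all from this 1 line. No value below therefore has a replicate error, and no test was made.

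A miRNA is cut from a hairpin in its primary transcript. One or both strands of the resulting duplex are then loaded into an Argonaute protein, where the seed near the 5′ end pairs with sites in target mRNAs and represses them. miR-21 is known as one of the most abundant miRNAs of fibroblasts and tumours. It is known for repressing inhibitors of growth and of extracellular proteases, among them Pdcd4, Spry1, Reck and Timp3. In human vascular smooth muscle cells, TGFβ is known to raise mature miR-21 through SMAD proteins that promote cutting of its primary transcript.

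The hairpin gene Mir21a lies on the minus strand at chr11:86584067-86584158 of GRCm38 (mm10), inside the protein-coding gene Vmp1 (chr11:86583865-86683836, same strand). In the GENCODE annotation it falls in the 3′ UTR of the transcript Vmp1-201, so it is exonic there. The mature sequences of both arms and of the related miR-21c and miR-21b are shown because the arms carry unrelated seeds and the relatives differ by few bases. They are given 5′ to 3′ as RefSeq lists them for GRCm38.p6, with the seed (bases 2 to 8) in capitals.
miR-21a-5p: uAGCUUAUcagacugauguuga
miR-21a-3p: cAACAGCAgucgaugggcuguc
miR-21c: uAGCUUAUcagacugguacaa
miR-21b: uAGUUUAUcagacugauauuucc
Positions are counted from 1 at the 5′ end. miR-21c (chromosome 8) shares the seed and the first 15 bases with miR-21a-5p and first differs from it at A16G. miR-21b (chromosome 3) differs within the seed at C4U. Of the 1281 miRNAs counted, 1029 had a sequence in the RefSeq table, and among the sequences of that table no miRNA other than miR-21c shared a seed with either arm. The other 252 could not be compared. One of them, miR-590-5p, is known to share the seed of miR-21a-5p and had 0 reads over all 6 libraries.

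The relatives were near the limit of counting. miR-21c had 1, 1 and 2 reads in the TGFβ libraries of days 2, 4 and 8 and 0 reads in each vehicle library. miR-21b had 0, 1 and 1 reads in the TGFβ libraries and 0 in each vehicle library. A count of 0 allows up to 27.6, 12.9 and 7.23 CPM (counts per 1000000 miRNA reads) in the vehicle libraries of days 2, 4 and 8. Nearly all reads under these names were thus reads of miR-21a-5p, and how the authors' counting divided reads among such close sequences is not given in the sources used here.

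miR-21a-5p was the most abundant miRNA of every TGFβ library. At day 2 it had 26528 reads with TGFβ and 6192 reads with vehicle, which is 14.8% of the TGFβ library (95% Wilson interval 14.7% to 15.0%) and 5.70% of the vehicle library (5.56% to 5.83%). At day 4 it had 47978 reads with TGFβ and 7839 with vehicle, or 10.4% (10.3% to 10.5%) and 3.38% (3.30% to 3.45%). At day 8 it had 143585 reads with TGFβ and 13696 with vehicle, or 10.3% (10.3% to 10.4%) and 3.30% (3.25% to 3.36%). All 3 TGFβ libraries were above all 3 vehicle libraries. These intervals are for counting error alone: without molecular identifiers, PCR copies count as separate reads. In bulk RNA, a change in the number of cells that carry a miRNA and a change in its amount per cell cannot be told apart.

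Its place among the miRNAs differed in the same way. It held rank 1 of 455, 509 and 581 detected miRNAs in the TGFβ libraries of days 2, 4 and 8. In the vehicle libraries it held rank 3 of 424, 9 of 488 and 11 of 501, and miR-99b-5p led each of them. Counts of 2 miRNAs in 1 library can be set against each other with no scaling between libraries. miR-21a-5p had 1.59, 1.30 and 1.35 reads per read of miR-99b-5p in the TGFβ libraries of days 2, 4 and 8, against 0.770, 0.461 and 0.515 in the vehicle libraries. The second place in the TGFβ libraries was held by miR-99b-5p at days 2 and 4 and by miR-214-3p at day 8.

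**Figure D1:**
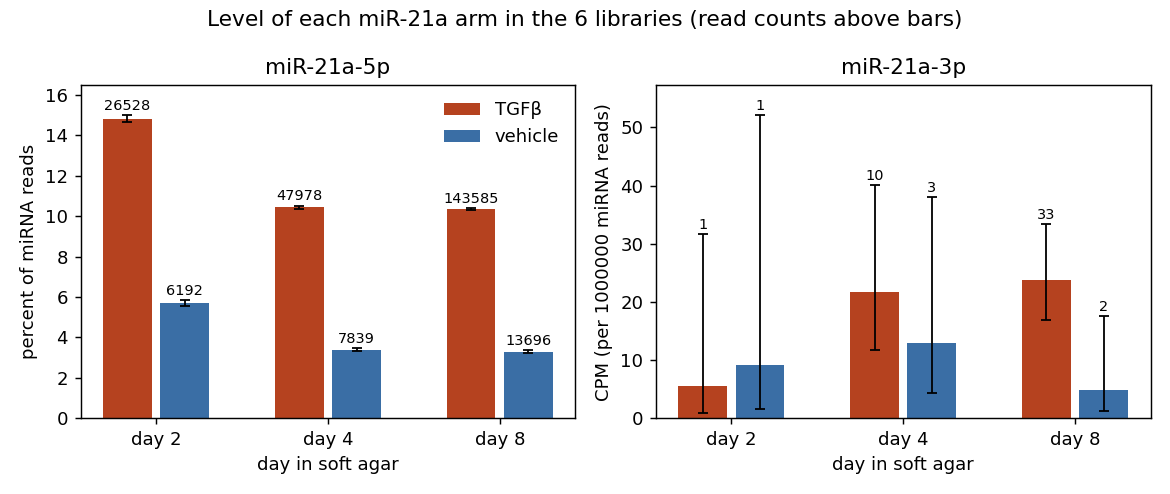
Level of miR-21a-5p (left, percent of all miRNA reads) and miR-21a-3p (right, CPM) by day, with TGFβ in red and vehicle in blue. Bars are single libraries, lines are 95% Wilson intervals for counting error, and the read count stands above each bar. The 5p arm lies between 10.3% and 14.8% in the TGFβ libraries and between 3.30% and 5.70% in the vehicle libraries, while the intervals of the 3p arm, with 1 to 33 reads, overlap between the treatments at every day.

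The TGFβ library of each day also held more reads, with totals of 178877, 459795 and 1387785 at days 2, 4 and 8, against 108716, 232107 and 414943 in the vehicle libraries. The part of depth in the results was not tested. Ratios between libraries were taken after scaling by trimmed mean of M-values (TMM) factors, which set the bulk of the miRNAs equal between libraries. On that scale miR-21a-5p stood at 156589, 124410 and 119204 CPM in the TGFβ libraries of days 2, 4 and 8, against 50154, 28971 and 30127 CPM in the vehicle libraries. The TGFβ over vehicle ratio was 3.12 at day 2 (95% counting interval 3.04 to 3.21), 4.29 at day 4 (4.19 to 4.40) and 3.96 at day 8 (3.89 to 4.03). With total counts and no factor the ratios were 2.60, 3.09 and 3.13, since that scaling lowers the median log2 change of all miRNAs by 0.23, 0.46 and 0.32. The order of the days was not stable. The ratio was highest at day 4 with TMM factors, at day 8 with DESeq2 size factors (3.04, 4.14 and 4.47) and at day 2 with upper-quartile factors (4.04, 3.82 and 3.46).

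Many miRNAs changed by 2-fold or more in single days. Counting miRNAs whose 2 libraries of a day averaged 10 CPM or more, 43 of 375 (11.5%) had a log2 change of 1 or more on the higher side at day 2. At day 4 there were 72 of 360 (20%), and at day 8 there were 71 of 358 (19.8%). The log2 changes of miR-21a-5p, 1.64, 2.10 and 1.98, ranked 27th, 16th and 22nd among them, below rarer miRNAs. At all 3 days together, 10 of 373 miRNAs (2.68%) were higher by this margin, and miR-21a-5p was one of them. The most abundant miRNAs, averaging 10000 CPM or more by a cutoff chosen after the values were seen, numbered 23, 25 and 25 at days 2, 4 and 8. Their median log2 changes were 0.11, 0.45 and 0.15, against -0.03, 0.15 and -0.0015 over all miRNAs compared. Among these miR-21a-5p had the largest increase at day 2, where the next, miR-151-3p, had 0.75. It came second at day 4, after miR-181a-5p at 2.15, and second at day 8, after miR-199a-5p at 2.23.

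**Figure D2:**
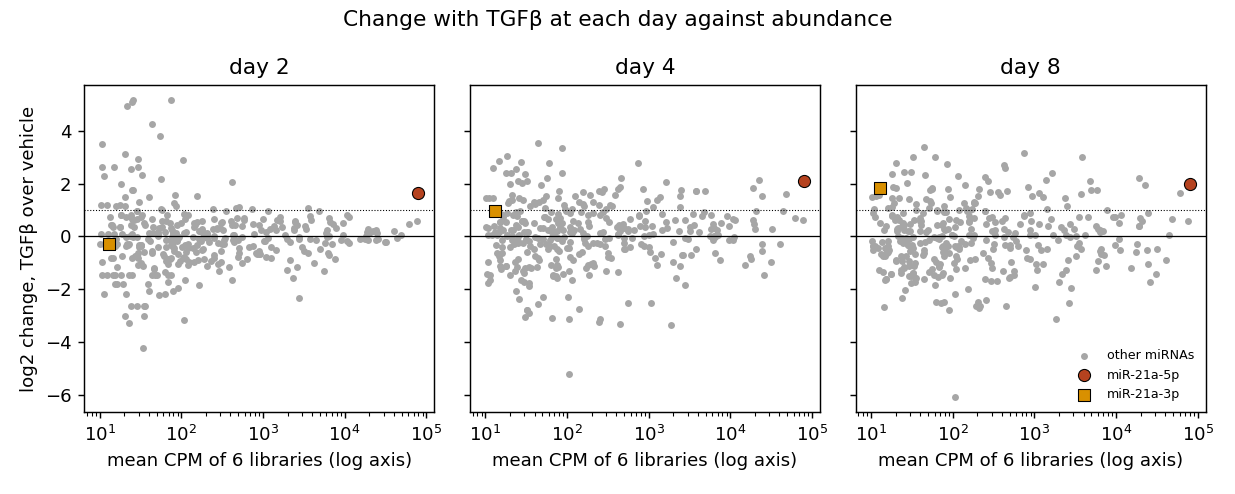
Log2 change, TGFβ over vehicle, against mean abundance over the 6 libraries (log axis) at days 2, 4 and 8, for the 373 miRNAs that averaged 10 CPM or more. Points are miRNAs, the dotted line marks a log2 change of 1, and miR-21a-5p lies at the far right at 1.64, 2.10 and 1.98, above most miRNAs of like abundance.

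A second description asks whether every TGFβ library lay above every vehicle library, whatever the day. This held for 46 of 373 miRNAs (12.3%), miR-21a-5p included. Its lowest TGFβ value, 119204 CPM at day 8, was 2.38 times its highest vehicle value, 50154 CPM at day 2. That gap, 1.25 on the log2 scale, was the third widest, after miR-455-5p (2.96, mean 44.0 CPM) and miR-224-5p (1.61, mean 421 CPM). The gaps of miR-677-3p and miR-324-5p followed at 1.15 and 1.03. With total counts the gap of miR-21a-5p was 1.82-fold and the fourth widest, and 24 miRNAs were separated in this way. miR-21a-3p was not among the separated miRNAs, with a gap of -0.58.

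**Figure D3:**
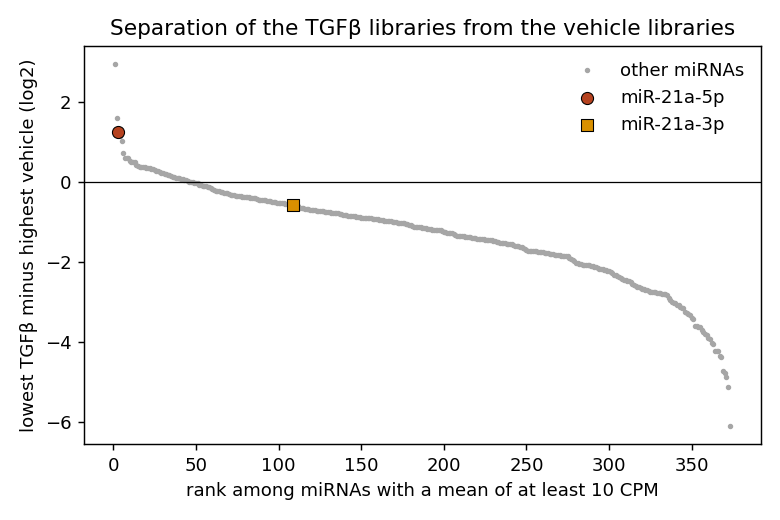
Lowest TGFβ value minus highest vehicle value (log2 of TMM-scaled CPM) for 373 miRNAs, ranked from the widest gap. Points above 0 are the 46 miRNAs whose 3 TGFβ libraries all exceed the 3 vehicle libraries; miR-21a-5p has the third widest gap, 1.25, and miR-21a-3p lies at -0.58.

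Over time, miR-21a-5p was lower after day 2 in both treatments. With TGFβ, the TMM-scaled level at day 4 was 0.794 times that at day 2 (95% counting interval 0.783 to 0.807), and day 8 was 0.958 times day 4 (0.948 to 0.968). With vehicle, day 4 was 0.578 times day 2 (0.559 to 0.597), and day 8 was 1.04 times day 4 (1.01 to 1.07). From day 2 to day 8 the ratio was 0.761 (0.751 to 0.771) with TGFβ and 0.601 (0.583 to 0.619) with vehicle. The size of this fall depended on the scaling. The ratio of day 8 to day 2 ran from 0.573 with upper-quartile factors to 0.965 with DESeq2 size factors in the TGFβ libraries, and from 0.580 with total counts to 0.669 with upper-quartile factors in the vehicle libraries. The fall was not unusual among the miRNAs, of which 37.5% with TGFβ and 27.3% with vehicle fell further between days 2 and 8. The order of the 6 TMM-scaled levels was TGFβ day 2, TGFβ day 4, TGFβ day 8, vehicle day 2, vehicle day 8 and vehicle day 4. The neighbours TGFβ day 4 and day 8, and vehicle day 8 and day 4, stood closest to each other, with the ratios of 0.958 and 1.04 given above. Under total counts the interval of each of these neighbouring pairs includes 1 (0.981 to 1.00 with TGFβ, 0.95 to 1.00 with vehicle). The order of the TGFβ pair turned with DESeq2 size factors, which put day 8 at 1.16 times day 4, and that of the vehicle pair turned with total counts, which put day 8 at 0.977 times day 4.

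miR-21a-3p, the passenger strand that is mostly degraded after the duplex opens, was rare. It had 1, 10 and 33 reads in the TGFβ libraries of days 2, 4 and 8, against 1, 3 and 2 reads in the vehicle libraries. As an unscaled level this is 5.59, 21.7 and 23.8 CPM with TGFβ, against 9.20, 12.9 and 4.82 with vehicle. Its rank was 367th, 288th and 281st in the TGFβ libraries and 348th, 339th and 401st in the vehicle libraries. The day 8 libraries stood furthest apart, and the day 2 libraries could not be separated at 1 read each. The TMM-scaled ratio was 0.729 at day 2 (95% counting interval 0.00928 to 57.2), 2.34 at day 4 (0.602 to 13.2) and 6.23 at day 8 (1.59 to 53.6). Only the day 8 interval leaves out 1, and at day 2 the arm lay below the 10 CPM minimum, with a mean of 7.39 CPM. A difference of the size seen for the 5p arm lies within the intervals of all 3 days, so none was detectable as different from it at this depth.

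The ratio of the arms comes from within each library and needs no scaling. Over all libraries there were 50 reads of the 3p arm among 245868 reads of both arms, 0.0203% (95% Wilson interval 0.0154% to 0.0268%), or 4916 reads of 5p per read of 3p. Summed over days, the 3p share was 0.0202% (0.0150% to 0.0271%) in TGFβ libraries, from 44 reads, and 0.0216% (0.00992% to 0.0472%) in vehicle libraries, from 6 reads. By library, the 3p share was 0.00377%, 0.0208% and 0.0230% with TGFβ at days 2, 4 and 8, against 0.0161%, 0.0383% and 0.0146% with vehicle. If every library had the pooled share, 5.39, 9.76 and 29.2 reads of 3p would stand in the TGFβ libraries and 1.26, 1.59 and 2.79 in the vehicle libraries. The day 2 TGFβ library, with 1 read, was the one furthest below this. The odds of 3p against 5p, TGFβ over vehicle, were 0.233 (0.00297 to 18.3), 0.545 (0.140 to 3.08) and 1.57 (0.402 to 13.5) at days 2, 4 and 8, and each interval includes 1.

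Few hairpins were as one-sided. Among 86 hairpins with at least 1000 reads of both arms together, the rarer arm took 2.13% of the reads at the median, with quartiles of 0.415% and 10.1%. miR-21a had the sixth lowest share. The 5 below it, named after their values were seen, were miR-146a, miR-186 and miR-3107 with no read of the rarer arm, miR-99a and miR-100. With 1035, 1006 and 1739 reads of both arms, the first 3 were too shallow to show 1 read at a share of 0.0203%. Their place below miR-21a is therefore not resolved, and miR-99a and miR-100 rest on 2 and 4 reads of the rarer arm. The 5p arm was the more abundant in 45 of the 86 and the 3p arm in the other 41. To set hairpins side by side, the odds of the arms were taken with 0.5 added to each count. Of the hairpins with enough reads of both arms, 53 of 92 at day 4 and 74 of 114 at day 8 lay within 2-fold between the treatments. The odds were higher with TGFβ by 2-fold or more in 18.5% and 14%, and lower by 2-fold or more in 23.9% and 21.1%. On this scale miR-21a lay just past 2-fold on the lower side at day 4, with odds of 0.490, and within 2-fold at day 8, with a log2 of 0.35. At day 2 miR-21a had too few reads of the 3p arm, while of 61 hairpins measured 19.7% were higher and 13.1% lower. Among the 61 hairpins measured at all 3 days, the mean log2 of the odds was highest for miR-193b (1.40), miR-361 (1.35) and miR-744 (1.28), and lowest for miR-455 (-1.78), miR-27a (-1.41) and miR-324 (-1.34). The days were not alike within a hairpin: miR-193b stood at -0.66, 1.80 and 3.07 at days 2, 4 and 8.

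**Figure D4:**
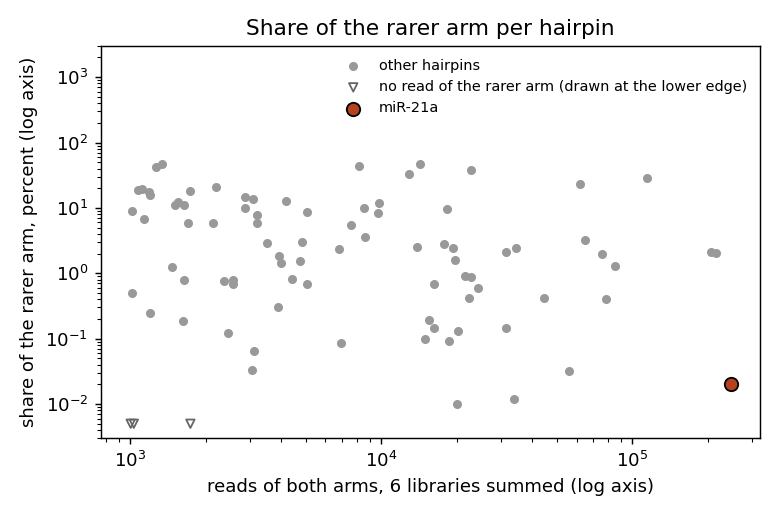
Share of the rarer arm (percent, log axis) against reads of both arms summed over the 6 libraries (log axis) for 86 hairpins with at least 1000 reads. Points are hairpins, triangles are hairpins with no read of the rarer arm, and miR-21a, at 0.0203% of 245868 reads, has the most reads and the sixth lowest share.

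The miRNAs whose levels ran most like those of miR-21a-5p were found by Pearson's r of log2 CPM over the 6 libraries, as a description. The 5 highest of 372 were miR-99b-5p (r = 0.98) and miR-99b-3p (0.97), the 2 arms of 1 hairpin, miR-350-5p (0.97), miR-5620-5p (0.95) and miR-206-3p (0.95), a miRNA of skeletal muscle. The median r of all 372 was -0.06, and 12 were above 0.9. miR-99b-5p, which led the vehicle libraries, stood at 98494, 95479 and 88505 CPM with TGFβ at days 2, 4 and 8, against 65146, 62858 and 58450 CPM with vehicle. Like miR-21a-5p it was higher in all 3 TGFβ libraries, by a smaller factor. miR-206-3p had 31, 45 and 156 reads in the TGFβ libraries and 10, 5 and 7 in the vehicle libraries. miR-5620-5p had 2 to 30 reads a library, so its r carries much counting error. The set changed with the libraries used: 3 of the 5 stayed among the 5 highest with total counts, 4 without day 4, and 1 without day 2 or without day 8.

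For the rare 3p arm, r with the 5p arm was 0.48, and the 5 miRNAs most like it were miR-5121 (0.96), miR-214-3p (0.93), miR-199a-5p (0.92), miR-455-3p (0.91) and miR-93-5p (0.89). None of them was among the 5 for the 5p arm. miR-199a-5p, a fibroblast-enriched miRNA, had 10601, 35621 and 47300 CPM with TGFβ at days 2, 4 and 8, against 9339, 9883 and 10092 CPM with vehicle. With 1 to 33 reads of the 3p arm behind them, these values describe the libraries only.

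Markers of cell type were read in the same libraries. All 9 miRNAs of the fibroblast and mesenchyme list had reads in every library, with a summed level of 82649, 134316 and 163009 CPM with TGFβ at days 2, 4 and 8, against 82831, 116054 and 89222 CPM with vehicle. The sum was carried by few members: of 226221 reads at day 8 with TGFβ, 119994 were miR-214-3p and 56975 were miR-199a-5p. These 2 were higher with TGFβ at each day. By contrast, miR-143-3p was lower at each day (log2 -0.10, -0.75 and -0.60), and miR-152-3p at days 4 and 8 (-0.48 and -0.97). Some other members changed side between days. The 8 epithelial miRNAs summed to 978, 13.0 and 18.7 CPM with TGFβ, against 239, 60.3 and 21.7 CPM with vehicle, so they stood out in the day 2 TGFβ library, where 7 of 8 had a read. These levels rest on 175, 6 and 26 reads with TGFβ and 26, 14 and 9 reads with vehicle, and their part in the results was not tested. Of 7 blood miRNAs on the list, 4 were found under the names given there. These 4 summed to 1.44 CPM in the day 8 TGFβ library and 0 in the others. The sum leaves out miR-486-5p, which the list names as miR-486a-5p. It averaged 816 CPM over the libraries, with log2 changes of -0.63, -0.30 and -0.83 at days 2, 4 and 8. Absence of blood markers can therefore not be read from the sum. The nerve and muscle list, 5 miRNAs with miR-206-3p among them, summed to 682, 446 and 589 CPM with TGFβ and 478, 396 and 412 CPM with vehicle, and its part in the results was not tested. The liver miRNA miR-122-5p had 8, 0 and 2 reads with TGFβ and 0, 3 and 2 with vehicle. The 2 endothelial miRNAs, miR-126a-3p and miR-126a-5p, were not found under these names and were not summed. Under the name miR-126-3p there was a mean of 10.6 CPM, with log2 changes of 2.62, 0.05 and -0.38 at days 2, 4 and 8.

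The mRNA tables, which did not enter the choice of the arms, were read for genes around miR-21. Each of the authors' deposited tables gives a ratio per gene for 998 genes, 499 of them (50%) above 1, with no value per sample. A gene that is not listed may still have changed. No header gives the direction of the ratio. It was read as TGFβ over vehicle because the authors' deposited table then had Pmepa1, a direct TGFβ target, at 5.41 on day 2, 22.1 on day 4 and 14.2 on day 8. Read the other way, each side given below would invert. A ratio that reduces to 2 odd whole numbers has the form of read counts plus 0.5, and in that form the larger number bounds the reads behind it. Such a form holds no factor for library size. The folds and sides given below may therefore not be adjusted for the depth of the mRNA libraries.

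Of the 20981 protein-coding genes with an annotated 3′ UTR, 1769 (8.43%) were matched to a gene listed at any day, which is the background for the counts below. These 20981 genes were not filtered for expression in AKR-2B cells, so the share among expressed genes is not known. The host gene Vmp1 and its neighbours, 8 symbols with synonyms, were listed at no day. The same held for 29 symbols of miRNA processing, among them Drosha and Dgcr8, which cut the primary transcript, Dicer1, which cuts the hairpin, and the Argonaute genes. Of 24 genes of SMAD, AP-1, STAT3 and related signalling upstream of miR-21, 2 were listed (8.33%). Il6, a cytokine that activates STAT3, had a ratio of 9 on day 4 and 10.3 on day 8 in the authors' deposited table, resting on as few as 4 and 15 reads. In the authors' deposited table Osmr, the receptor of oncostatin M, was 8.04-fold lower on day 2.

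Of 48 mRNAs reported in the literature as direct targets of miR-21-5p, 8 were listed at any day (16.7%, against 8.43% of all genes). The list was drawn up with earlier results of these data known, so this share carries no test. On day 2 the authors' deposited table had 1 of them above 1 and 1 below it. On day 4 it had 2 on each side, and on day 8 it had 2 above and 3 below. Timp3, an inhibitor of metalloproteinases, came out 8.13-fold lower on day 4, and 12.8-fold lower on day 8, by the authors' deposited table. Sesn1, a stress-induced inhibitor of mTORC1 signalling, came out 7.44-fold lower on day 2, and 7.09-fold lower on day 8, by the authors' deposited table. Its day 2 ratio could rest on as few as 33 reads. Sorbs2, an adaptor of the actin cytoskeleton, came out 8.33-fold lower on day 4, and the transcription factor gene Sox7 9-fold lower on day 8, by the authors' deposited table. These last ratios could rest on as few as 12 and 4 reads.

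Other listed targets lay on the opposite side. Jag1, a Notch ligand, had a ratio of 5.63 on day 2, and Rhob, a small GTPase gene, one of 5.70 on day 4, by the authors' deposited table. Dusp8, a phosphatase of MAP kinases, had ratios of 5.49 on day 4 and 5.24 on day 8, by the authors' deposited table. These could rest on as few as 112 and 44 reads. The transcription factor gene Sox5 had a ratio of 7.57 on day 8, by the authors' deposited table, resting on as few as 26 reads. Pdcd4, Spry1 and Reck were not listed.

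**Figure D5:**
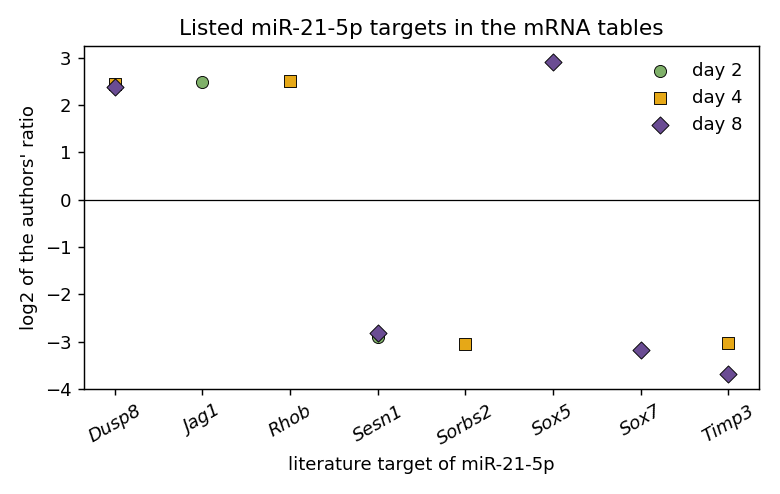
Log2 of the ratio in the authors' deposited tables for the 8 listed literature targets of miR-21-5p, with day 2 as circles, day 4 as squares and day 8 as diamonds. Read as TGFβ over vehicle, Dusp8, Jag1, Rhob and Sox5 lie above 0 and Sesn1, Sorbs2, Sox7 and Timp3 below 0, with no value per sample behind them.

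Sites for the 5p seed were searched in the sense strand of the longest annotated 3′ UTR of each gene. A site was ATAAGCT, which pairs with bases 2 to 8 of the miRNA. It was also TAAGCTA, which pairs with bases 2 to 7 and ends in a further A. The longer ATAAGCTA holds both. Of the 48 targets, 47 had a 3′ UTR in the annotation and 39 of these had a site. Of the 8 listed targets, 7 had one, Sesn1 being without. Sorbs2 and Sox7, both with ratios below 1, hold TAAGCTA without the longer match, and Dusp8 holds a further site of that kind. Those sites are not shown. The sites of listed targets that hold ATAAGCT are shown, as 24 bases of the UTR in DNA letters with the match in capitals.
Timp3: tttttgagctttcaATAAGCTAta
Jag1: tagggagtattctcATAAGCTAgt
Dusp8: tgatccctgagaaaATAAGCTAtt
Sox5: aagaagagatcgaaATAAGCTAtg
Rhob: tacataagagttctATAAGCTgtg
Timp3, the one with the lowest ratio, and Jag1, Dusp8 and Sox5, with ratios above 1, hold the same 8 letters. A match is a description of the sequence and not of binding.

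Over the whole tables, genes with a site were no commoner below 1 than in the genome. Of 20981 protein-coding genes with a 3′ UTR, 2319 (11.1%) held a site for the 5p seed. Among listed genes below 1, the share was 47 of 448 (10.5%), 40 of 417 (9.59%) and 43 of 443 (9.71%) at days 2, 4 and 8. Among listed genes above 1, it was 36 of 405 (8.89%), 47 of 446 (10.5%) and 45 of 437 (10.3%). Those listed above 1 at all 3 days had a site in 15 of 101 (14.9%), and those below 1 at all 3 days in 12 of 116 (10.3%), with median 3′ UTR lengths of 1155 and 1078 bases against 954 over all genes. The longer match ATAAGCTA was in 2.09% of all genes. It was in 2.72%, 2.69% and 2.52% of genes above 1 and in 1.1%, 1.68% and 2.48% of genes below 1 at days 2, 4 and 8. For the 3p seed, whose longest match was TGCTGTTA, searched with its first and its last 7 letters, the share was 22% of all genes, 20%, 21.5% and 22.9% of genes above 1, and 19.9%, 18.7% and 21.7% of genes below 1. Genes are not replicates, the shares over all genes are not limited to expressed genes, and none of these shares carries a test.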

How the data were processed

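The authors' deposited count table gives whole read counts per mature miRNA for 6 libraries. A second deposited table gives RPM values (reads per 1000000 of the library, by the authors) per pair of mature miRNA and precursor, and a ratio (fold) per gene is in the authors' deposited mRNA tables. Per the submitters' processing notes, edgeR 3.9 and build mm10 were used. No aligner or counter is given in the sources used here. Library totals ran from 108716 to 1387785. The members and lists, and the search for seed sites, were chosen with earlier results of these data known.

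Scaling used TMM factors (0.839 to 1.17) from 309 miRNAs past the expression filter of edgeR 4.0.16 in R 4.3.3. Its scaling was run on simulated Poisson counts with as many miRNAs raised as lowered. That setting cannot show how the scaling behaves where changes lie mostly on 1 side. Log2 changes used a prior count of 2 and a mean of at least 10 CPM. Ratios carry exact conditional binomial 95% intervals and arm odds exact conditional intervals, computed in scipy 1.17.1. Hairpins needed 20 reads of both arms in each library of a day and 5 reads of each arm. The rule for naming took the arms, seed mates, the 3 most abundant miRNAs per library and the 5 most alike by r. It also took the 3 hairpins with the largest arm shift each way, and every listed member of the gene lists. Marker miRNAs came from their own lists. Outside the rule, miRNAs with the widest gaps or the largest changes at 10000 CPM or more were named after the values were seen. Alternatives were total counts, DESeq2 1.42.0 size factors, upper-quartile factors, other filters and the RPM table. Of 998 listed genes per day, 145, 135 and 118 had no 3′ UTR matched in GENCODE at days 2, 4 and 8.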

Additional observations from a re-analysis of the deposited data

Results flagged for a closer look

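For miR-21a-3p, the TMM-scaled TGFβ over vehicle ratio was 0.729 at day 2, below 1, while it was 2.34 and 6.23 at days 4 and 8. The difference between the days was not tested, and the day 2 ratio rests on 1 read in each library.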

How the results depend on the processing

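No paired analysis was possible within a day because each treatment had 1 library per day. A fit that takes the 3 days as pairs was not made, since the arms were chosen with these values known. Of 79 recomputed values, 44 stayed within the counting interval of the main value or within 1.5 times the main count, 33 did not, and 2 changed direction. Those 2 were the day 8 over day 4 ratio of miR-21a-5p with TGFβ under DESeq2 size factors (1.16, against 0.9582) and with vehicle under total counts (0.9773, against 1.04), and the cause was not tested. The same ratio with TGFβ was 0.9915 with total counts and 0.9756 with upper-quartile factors, and with vehicle it was 1.074 with DESeq2 size factors and 1.079 with upper-quartile factors, all added after seeing the data. The ratio of miR-21a-5p at days 2, 4 and 8 was 2.604, 3.09 and 3.135 with total counts and the same with the authors' RPM table. It was 2.883, 3.333 and 3.381 with both arms left out of the totals, and 4.037, 3.824 and 3.456 with upper-quartile factors. With DESeq2 size factors it was 4.142 and 4.474 at days 4 and 8, and with TMM factors from all miRNAs, added after seeing the data, 4.088 and 4.207. Its day 8 over day 2 ratio was 0.6976 and 0.9648 with TGFβ, and 0.5795 and 0.6558 with vehicle, for total counts and DESeq2 size factors. With upper-quartile factors, added after seeing the data, it was 0.5727 with TGFβ and 0.6689 with vehicle. miRNAs at least 2-fold higher at day 2 numbered 43, against 116 with any read counted and 13 at a mean of at least 100 CPM, where days 4 and 8 had 37 and 39. Of the 5 miRNAs most like miR-21a-5p, 3 were shared with total counts, 1 without the day 2 libraries and 1 without the day 8 libraries. The 3p arm kept its direction at days 4 and 8 in every alternative, within intervals that its few reads leave wide. At day 2, with 1 read in each library, its ratio reflects only the scaled library sizes, so its direction there carries no information. Counting error is small for the 5p arm, while the part of the difference in depth between the treatments was not tested.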
